A study of Mus musculus with 4 samples.

Results

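The genes described here are the longest of the mouse autosomes, each spanning at least 500 kb, together with the regions enriched for trimethylated lysine 9 of histone H3 (H3K9me3) or trimethylated lysine 36 (H3K36me3) that overlap them. Members were found by length in the GENCODE vM1 annotation of the mm9 build (NCBIM37), and Wwox and Cdh13 were left out by the rule. Of 21416 autosomal protein-coding genes, 186 met it. They held 3987 of the 64095 listed regions, made up of 409 of 31593 H3K36me3 regions and 3578 of 32502 H3K9me3 regions. A region was assigned to a gene when at least 1 bp overlapped.

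The regions came from chromatin immunoprecipitation sequencing (ChIP-seq) of mouse embryonic stem (ES) cells of strain 129S1/SvImJ, at passages below 20. Wild-type (WT) cells were studied alongside cells targeted to carry H3.3 G34R, a glycine to arginine change of the histone variant H3.3. The mutant cells carried a single G34R minigene read from the endogenous H3f3a promoter, next to a WT H3f3a allele and both WT copies of H3f3b, and the labels do not say how many clones were used. Each mark was measured in 1 library of each cell type, and each list combines bins enriched in WT or in G34R cells. The lists hold positions only, so read depth is unknown, no region can be assigned to a cell type, and WT and G34R cells cannot be compared. Intervals below are 95% intervals that cover counting error, treat regions or genes as independent and carry no replicate error.

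H3K36me3 is laid down by SETD2 travelling with elongating RNA polymerase II, and it therefore lies over the bodies of transcribed genes and builds up towards their ends. H3K9me3 is laid down by SETDB1 and SUV39H enzymes, is bound by HP1 proteins, and is best known from silent chromatin and repeated elements. Very long genes consist almost wholly of introns, and many of them encode adhesion molecules, channels and scaffolds of neurons.

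The gene spans were examined first, because 2 of the 186 genes reached 500 kb only through transcripts tagged as read-through, which run from one gene into others. Gm20388 (chr8:122434741-126869622) spanned 4435 kb and overlapped 74 other protein-coding genes. Its span held 238 H3K36me3 regions and 432 H3K9me3 regions, of which 222 and 151 touched another gene. Fgfr2, a receptor of fibroblast growth factors (chr7:137305965-140315033), spanned 3009 kb over 32 other protein-coding genes, against 104 kb without the read-through transcript. It held 58 H3K36me3 regions, all of which touched another gene, and 148 H3K9me3 regions, 49 of which did. These spans carried most of the H3K36me3 assigned by the rule. Without read-through transcripts, 184 long genes remained, with 113 H3K36me3 regions and 2998 H3K9me3 regions. Among the 186 genes, 287 of 409 H3K36me3 regions (70.2%, 65.6 to 74.4) touched another gene, and among the 184 genes 7 of 113 did (6.19%, 3.03 to 12.2). For H3K9me3 the shares were 283 of 3578 (7.91%, 7.07 to 8.84) and 83 of 2998 (2.77%, 2.24 to 3.42). Values below refer to the 184 genes unless the 186 are named, a choice made after the data were seen. Density ratios, covered shares and the shares of overlapping regions are given for both sets.

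Stretches from 4 regions show what the lists contain in these genes, in the mm9 assembly, on the strand of the gene, with each CG dinucleotide in capitals. The widest H3K36me3 region lay in Etl4 (chr2:20704001-20710800, 6800 bp, the first of a pair of equal width), and the bases shown are the intronic 200 nearest its centre (chr2:20707327-20707526). The widest H3K9me3 region lay in Sdk1 (chr5:142525801-142536200, 10400 bp), shown by intronic bases at chr5:142530901-142531100. The widest stretch held by both lists lay in an intron of Smyd3 (chr1:181198601-181200800, 2200 bp), shown at chr1:181199601-181199800 on the minus strand. Of the H3K9me3 regions that cover a gene start and touch no other annotated gene, the one centred nearest the start lay at Unc5d, a netrin receptor (chr8:30329401-30330000, 600 bp), and the 190 bases before the annotated start are shown (chr8:30329811-30330000, minus strand).
Etl4, H3K36me3: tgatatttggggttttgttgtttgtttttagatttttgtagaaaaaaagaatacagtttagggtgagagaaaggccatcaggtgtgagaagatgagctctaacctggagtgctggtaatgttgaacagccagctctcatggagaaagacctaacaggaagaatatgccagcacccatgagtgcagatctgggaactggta
Sdk1, H3K9me3: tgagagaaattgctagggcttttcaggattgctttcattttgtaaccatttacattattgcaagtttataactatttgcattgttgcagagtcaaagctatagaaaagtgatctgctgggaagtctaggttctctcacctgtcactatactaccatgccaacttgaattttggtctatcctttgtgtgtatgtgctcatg
Smyd3, both marks: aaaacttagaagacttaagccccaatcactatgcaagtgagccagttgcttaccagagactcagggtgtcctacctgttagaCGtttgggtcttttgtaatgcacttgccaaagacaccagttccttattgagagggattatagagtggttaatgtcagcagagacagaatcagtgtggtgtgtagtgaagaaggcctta
Unc5d, H3K9me3 at the start: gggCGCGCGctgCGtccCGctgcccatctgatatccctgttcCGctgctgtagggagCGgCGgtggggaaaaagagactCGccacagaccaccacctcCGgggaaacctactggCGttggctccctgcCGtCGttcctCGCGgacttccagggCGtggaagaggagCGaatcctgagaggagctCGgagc
The windows in Etl4 and Sdk1 held 0 CG dinucleotides, and that in Smyd3 held 1. The Unc5d stretch held 18 in 190 bases, with a G+C content of 65.8%. It is an example of the base-rich starts described further below, whereas the others have the composition of ordinary introns (42.0%, 37.5% and 44.0% G+C).

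Long genes almost always carried H3K9me3 and seldom H3K36me3. An H3K9me3 region was found in 183 of the 186 genes (98.4%, 95.4 to 99.5), against 41.4% of all autosomal protein-coding genes. An H3K36me3 region was found in 31 of the 186 (16.7%, 12.0 to 22.7), against 35.2% of all. All of these 31 also carried H3K9me3, so that both marks were present in 16.7% of long genes and in 12.6% of all genes, and no long gene carried H3K36me3 alone. Without the read-through models the counts were 181, 29 and 29 of 184 (98.4%, 15.8% and 15.8%). Among regions of at least 1 kb, H3K36me3 and both marks were each found in 9.78% of the 184 genes and 10.8% of the 186. The 12.6% of all genes counts regions of any width. A longer gene offers more sequence in which a region can fall, so shares of genes are read here beside densities. The share of genes with H3K9me3 rose through the length classes, from 22.1% below 10 kb and 42.2% at 10 to 50 kb to 93.9% (91.9 to 95.4) at 200 to 500 kb. The share with H3K36me3 was 47.7% (46.6 to 48.7) at 10 to 50 kb, 35.2% (32.7 to 37.8) at 100 to 200 kb and 21.5% (18.7 to 24.7) at 200 to 500 kb. Length therefore went with more carriers of H3K9me3 and, above 10 kb, fewer carriers of H3K36me3. Both marks were carried by 15.3% (14.6 to 16.1) of genes at 10 to 50 kb and 24.6% (22.9 to 26.3) at 50 to 100 kb. The shares were 26.5% (24.2 to 28.9) at 100 to 200 kb and 20.4% (17.6 to 23.5) at 200 to 500 kb. The 15.8% (11.2 to 21.7) of the 184 genes was below each class from 50 to 500 kb, with overlapping intervals at 200 to 500 kb.

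**Figure D1:**
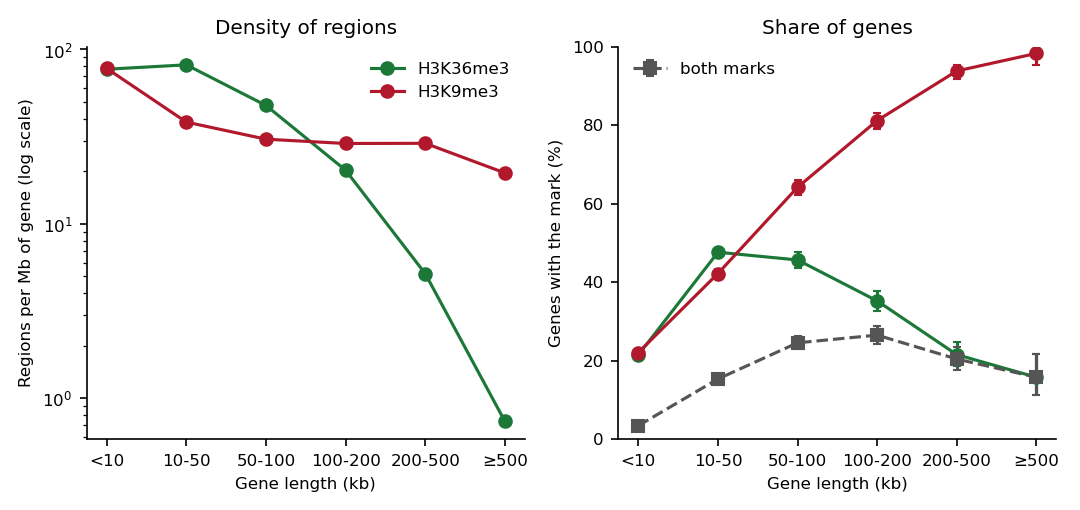
Regions per Mb of gene (left, log axis) and percentage of genes carrying a region (right, bars are 95% Wilson intervals) in 6 classes of gene length, read-through transcripts left out. H3K36me3 fell from 81.7 regions per Mb at 10 to 50 kb to 0.739 at 500 kb and over, while the share of genes with H3K9me3 reached 98.4%.

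Pooled over the length of all genes, both marks were thinner in long genes, H3K36me3 by far the more so. The H3K9me3 density of the median long gene was not lower than in all shorter genes together. It was lower than in genes of 200 to under 500 kb. The 184 genes covered 153 Mb and held 0.739 H3K36me3 regions per Mb, whereas genes of 10 to under 500 kb, the comparison class of 12760 genes, held 37.8 per Mb. The ratio of densities was 0.0195 (0.0161 to 0.0235), and 0.0674 (0.0610 to 0.0743) for the 186 genes. It depended on the comparison class and on single genes. For the 184 genes it was 0.0607 against genes of 100 to 500 kb and 0.0123 without Etl4. For the 186 genes it was 0.208 against genes of 100 to 500 kb and 0.0290 without Gm20388. H3K9me3 stood at 19.6 regions per Mb against 31.7, a ratio of 0.618 (0.595 to 0.642), and 0.703 (0.679 to 0.728) for the 186 genes. Taken gene by gene the H3K9me3 order turned, with a median of 12.7 regions per Mb in the 184 genes (quartiles 7.46 and 26.9) against 10.2 in the shorter genes (quartiles 0 and 51.1), and 18.6 in genes of 200 to under 500 kb (quartiles 8.45 and 37.7). By covered length, H3K36me3 took up 0.0922% of the long genes and 6.69% of the shorter ones, and H3K9me3 took up 1.87% and 3.46%. In the 186 genes the covered shares were 0.582% and 2.19%. Against the next class alone, genes of 200 to 500 kb, the long genes had 0.739 against 5.18 H3K36me3 regions per Mb and 19.6 against 28.97 H3K9me3 regions per Mb. Genes next to the limit had like counts of H3K9me3 regions on either side, and Dock1 alone among them carried H3K36me3. Abca13, Ank3 and Dnm3, just below it (492 to 496 kb), had 7, 11 and 5 H3K9me3 regions and 0 H3K36me3 regions. Edil3, Dock1 and Car10, just above it (502 to 504 kb), had 4, 9 and 8 H3K9me3 regions and 0, 18 and 0 H3K36me3 regions.

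The genes differed widely in H3K9me3. The median gene held 10 regions (quartiles 5 and 20.2, range 0 to 92), and the highest density was 134 regions per Mb. A count of 1 to 5 regions was found in 46 genes, 6 to 20 in 89 and over 20 in 46. The 10 genes with most regions held 653 of the 2998 (21.8%), and the top 20 held 35.99%. The longest genes were not those with the most regions. Ptprd, a receptor tyrosine phosphatase and the longest member at 2271 kb, had 3 regions. The other members among the 5 longest, all over 1.9 Mb, were Cntnap2, a contactin-associated adhesion protein of axons, with 18, Lrp1b, an endocytic receptor of the LDL family, with 9, Macrod2 with 15 and Dlg2, a postsynaptic scaffold, with 5. None of these 5 carried H3K36me3.

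The genes with the highest counts of H3K9me3 regions were of several kinds. Accn1, an acid-sensing ion channel subunit (chr11:80693671-81781959, 1088 kb), had 92 H3K9me3 regions covering 76.6 kb. Cacna1c, the pore subunit of an L-type calcium channel (chr6:118542314-119146249, 604 kb), had 81 regions covering 74 kb, which was 12.3% of the gene and the highest covered share and the highest density of the 184. Gpc6, a cell surface glypican (chr14:117324519-118378751), had 73 regions. In Gpc6 the mark leaned to the end, with 22 regions in the last of 10 equal parts of the gene and 2 in the first part. Dlgap2, a scaffold of the postsynaptic density (chr8:14095865-14847684), had 71 regions over 8.82% of its length and 1 H3K36me3 region. Sox5, a transcription factor of the Sox family (chr6:143776945-144730497), and Ptprm, a receptor tyrosine phosphatase (chr17:67016188-67703799), had 60 each. Sdk1, an adhesion molecule of the immunoglobulin family (chr5:141717444-142691540), Alk, a receptor tyrosine kinase (chr17:72218782-72953049), and Csmd2, a CUB and sushi domain protein (chr4:127665101-128244903), had 55 each. Odz2, a teneurin (chr11:35820158-37049466), and Slit3, an axon guidance ligand (chr11:34934726-35522009), had 51 each. Odz2 had 20 of its regions in the last part and 0 in the first. Of these 11 genes, Dlgap2 and Sdk1 carried H3K36me3, with 1 region each. By covered share, Large, a glycosyltransferase that acts on dystroglycan (chr8:75338498-75877439), came after Cacna1c and Dlgap2 with 8.50% under 38 regions, followed by Csmd2 (7.78%) and Ptprm (7.77%).

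**Figure D2:**
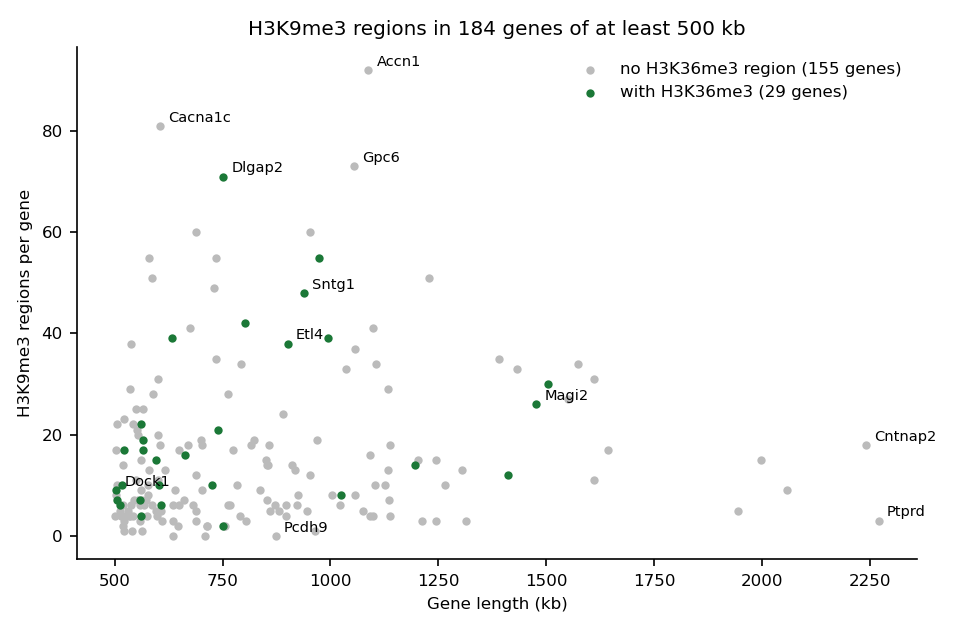
Each point is 1 of 184 genes, placed by length in kb and by its number of H3K9me3 regions, with the 29 genes that also carry H3K36me3 in green. Accn1 (92 regions) and Cacna1c (81) stand highest, and Ptprd, the longest gene, has 3.

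At the other end, 3 genes had neither mark. They were Pcdh9, a protocadherin of 873 kb, Mgat4c, an N-acetylglucosaminyltransferase of 710 kb, and Lama2, a laminin chain of 636 kb. A further 4 genes had a single H3K9me3 region, which in each lay in the first of the 10 parts. These were Cadm2, a synaptic adhesion molecule, Kcnq5, a potassium channel, Foxp2, a forkhead transcription factor, and Ptprk, a receptor tyrosine phosphatase. In 3 of these 4 genes (all but Ptprk) the region lay within 1 kb of the annotated start.

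H3K9me3 in long genes was mostly narrow and scattered. Of 2998 regions, 1455 were 600 bp wide, the narrowest width in the list (48.5%, 46.7 to 50.3, against 43.6%, 42.9 to 44.2, in the shorter genes), and the median was 800 bp in both classes. Only 9 regions exceeded 5 kb (0.300%, 0.158 to 0.570, against 1.18%, 1.05 to 1.33). They lay in Sdk1, which had 2, and in Nlgn1, Ptprg, Cacna1c, Cntn5, Dlgap2, Magi1 and Large. The region of 8200 bp in Nlgn1, a neuroligin, lay at 85.0% of the gene in an intron. The longest run, with regions at most 2 kb apart, also lay in Nlgn1 and measured 28.6 kb (12 regions). Much of this sequence is repeated: the central 50 bases occurred more than once in the assembly for 25 of the 41 bins of the 8200 bp region and for 92 of the 157 H3K9me3 bins of Nlgn1, against 4.62% of the H3K9me3 bins of all 184 genes. The next longest measured 16.6 kb in Sdk1 (3 regions) and in Large (10 regions), and 15.6 kb in Sntg1 (9 regions).

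Along the gene, the first and the last part held more H3K9me3 regions than any part between, in long and in shorter genes, and the last part stood out less in the shorter ones. Of the H3K9me3 regions, 14.9% (13.7 to 16.3) lay in the first of 10 equal parts and 14.1% (12.9 to 15.4) in the last, and the 8 parts between held 7.44% to 10.2% each. In the shorter genes the first part held 19.0% (18.6 to 19.5) and the last 10.4% (9.98 to 10.7), against 8.54% to 9.17% in each part between. In the 186 genes the first part held 14.2% (13.1 to 15.4). Measured in kb, the density within 2 kb of the start was 296 regions per Mb, against 41.4 at 2 to 10 kb, 24.6 at 10 to 50 kb and 18.9 at 50 to 250 kb. Genes of 200 to 500 kb had 242 regions per Mb within 2 kb of the start. Near the end no such peak was seen, with 32.6 regions per Mb within 2 kb, 33.3 at 2 to 10 kb and 22.5 at 50 to 250 kb.

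The peak at the start was shared by many genes. An H3K9me3 region lay within 1 kb on either side of the annotated start in 102 of 186 genes (54.8%, 47.7 to 61.8), against 19.7% of all genes. The share was 45.4% (41.8 to 49.1) at 200 to 500 kb, 33.0% (30.5 to 35.5) at 100 to 200 kb and 16.6% (15.8 to 17.4) at 10 to 50 kb. In 100 of the 102 the region overlapped the gene. These start regions had a median G+C content of 60.2% (quartiles 55.7 and 65.4) and a median width of 1200 bp, against 45% and 800 bp for the other 2896 regions of the long genes. The widest was 5000 bp in Ptprt, a receptor tyrosine phosphatase. The 2 kb around the start held a median of 56.2 CG dinucleotides per kb in the 102 genes with the mark (quartiles 40.6 and 69.2) and 20.2 in the other 82 (quartiles 13.1 and 37.9). Whether base composition has a part in the start regions was not tested.

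**Figure D3:**
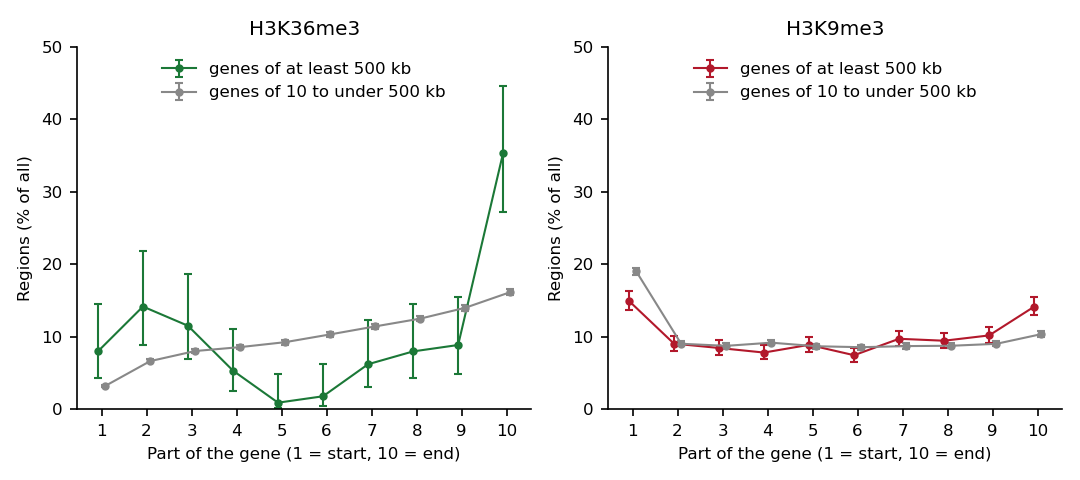
Percentage of regions in each of 10 equal parts of the gene, from start to end, with 95% Wilson intervals, for genes of at least 500 kb (coloured) and of 10 to under 500 kb (grey). In long genes 35.4% of H3K36me3 regions lie in part 10, and H3K9me3 is raised in parts 1 and 10.

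H3K36me3 in long genes was concentrated in a few genes. Of 113 regions, 60 (53.1%) lay in Etl4 and Dock1, and the other 53 were spread over 27 genes. In 15 genes there was 1 region, in 12 there were 2 to 5, and in 155 there was none. Etl4 and Dock1 were also the only genes of the 184 with more H3K36me3 than H3K9me3 regions.

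Etl4, also known as Skt or sickle tail and required for normal intervertebral discs (chr2:19831407-20732340, plus strand, 901 kb), held 42 H3K36me3 regions covering 73.6 kb, or 8.17% of the gene, and 38 H3K9me3 regions covering 43.2 kb. The H3K36me3 regions lay towards the end. A block of 21 regions, none over 10 kb from the next, ran from 832 to 900 kb after the start (chr2:20663001-20731000) and covered 42.2 kb of its 68.0 kb. These distances are from the outermost annotated start. Other transcript starts are annotated further along, and the regions of the block lay 1.02 to 29.7 kb from the nearest one. In this block 11 regions touched coding exons and 5 overlapped H3K9me3. Blocks of 6 regions lay 616 to 634 kb and 797 to 810 kb after the start, and a block of 3 lay 678 to 684 kb after it. H3K9me3 overlapped 4 of 6, 0 of 6 and 3 of 3 regions of these blocks, so the marks met in some blocks and not in others.

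Dock1, an activator of the GTPase Rac (chr7:141862370-142365322, plus strand, 503 kb), held 18 H3K36me3 regions covering 3.94% of the gene and 9 H3K9me3 regions. A block of 14 H3K36me3 regions lay 73.2 to 119 kb after the start, which is 14.6% to 23.7% of the way along the gene, and 7 of its regions touched coding exons. Another region lay at 26.6% of the gene and the last 3 lay between 94.4% and 99.0%. H3K9me3 overlapped 2 of the 18. In Dock1 the bulk of H3K36me3 thus lay in the second and the third of the 10 parts, unlike in Etl4.

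In the remaining genes H3K36me3 formed short groups or single regions. Frmd4a, a scaffold protein of cell polarity (chr2:3938763-4535083), had 5 regions, all between 98.0% and 99.6% of the gene, 3 of them at coding exons and 0 overlapping H3K9me3. Smyd3, a SET domain methyltransferase (chr1:180882091-181448172), had 5 regions, of which 4 overlapped H3K9me3. Sntg1, a syntrophin of the dystrophin complex (chr1:8351556-9289959), had 5 regions within 10.8 kb at 37.0% to 38.2% of the gene, in introns, and all 5 overlapped H3K9me3. Odz4, a teneurin (chr7:103319754-104059603), had 4 intronic regions at 19.5% to 21.1%, all within H3K9me3. Magi2, a synaptic scaffold (chr5:18732864-20210616), had 3 within 3 kb at 99.1% to 99.3%, all inside a single H3K9me3 region. Exoc4, a subunit of the exocyst (chr6:33199085-33923979), had 3 regions 16.3 to 28.7 kb after the start, 2 of them at coding exons, with no overlap. Camta1, a calmodulin-binding transcription activator (chr4:150433633-151235985), had 3 regions and 42 H3K9me3 regions, with no overlap between them. Cdkal1, Grip1, Enox1, Schip1 and Atrnl1 had 2 each. Single regions lay, among others, in Pde4d, Prkg1, Astn2, Park2, Sdk1, Dlgap2, Mdga2, Magi1, Mast4, A830018L16Rik, Vps13b, Elmo1, Pgcp and Rad51l1. Those in Prkg1, Astn2 and Mast4 also touched another gene, so the long gene and the other gene cannot be told apart as their source. By covered share the highest genes were Etl4, Dock1, Smyd3 (0.883%), Frmd4a (0.805%) and Odz4 (0.460%).

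**Figure D4:**
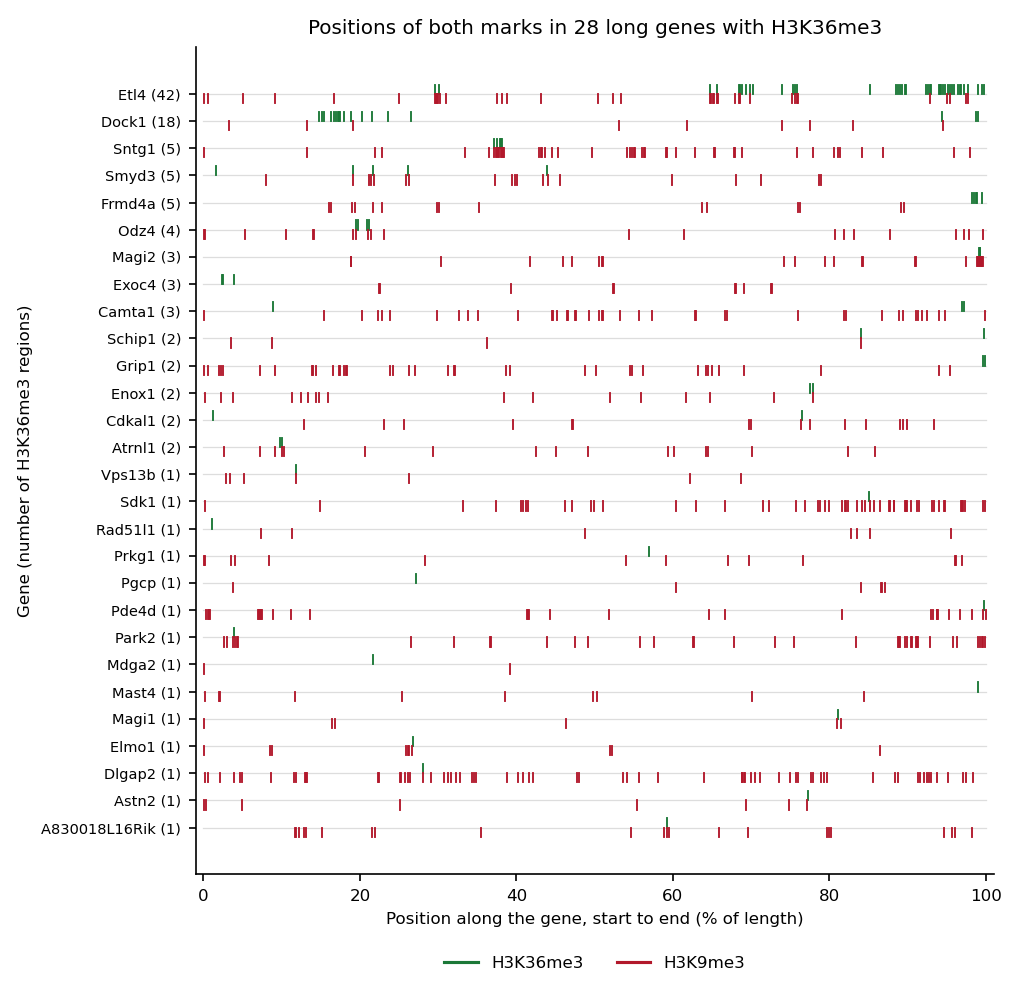
Positions of H3K36me3 (green, upper ticks) and H3K9me3 (red, lower ticks) along the long genes with H3K36me3 that are named in the text, from start (0%) to end (100%), each tick being the midpoint of 1 region. H3K36me3 is dense at the end of Etl4, between 14.7% and 26.6% of Dock1, and otherwise falls in small groups.

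By position, 35.4% (27.2 to 44.6) of the H3K36me3 regions lay in the last of the 10 parts, against 16.2% (15.7 to 16.6) in the shorter genes and 18.3% (14.9 to 22.4) in the 186 genes. Etl4 alone supplied many of these. Without Etl4 and Dock1 the last part held 16 of 53 (30.2%, 19.5 to 43.5), and the first held 9 (16.98%, 9.20 to 29.2). Within 2 kb of the end the density was 5.43 regions per Mb, at 2 to 10 kb it was 8.83 and at 50 to 250 kb it was 0.707. Within 2 kb of the start there were 0 regions. An H3K36me3 region within 1 kb of the annotated end was found in 1 of 186 genes (0.538%, 0.0950 to 2.98), against 20.4% of all genes and 3.75% (2.59 to 5.40) at 200 to 500 kb. This gene was Grip1, a scaffold of glutamate receptors, and the region there also touched another gene, so the 2 genes cannot be told apart as its source.

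The lists overlapped more often in the long genes than in the shorter ones when counted from H3K36me3. Of 113 H3K36me3 regions, 47 overlapped an H3K9me3 region (41.6%, 32.9 to 50.8), against 8.63% (8.31 to 8.96) in the shorter genes and 97 of 409 (23.7%, 19.9 to 28.1) in the 186 genes. In Etl4 and Dock1 18 of 60 did so, and in the other 27 genes 29 of 53 (54.7%, 41.5 to 67.3). Counted from H3K9me3 the order was the opposite, with 42 of 2998 regions overlapping H3K36me3 (1.40%, 1.04 to 1.89) against 9.91% (9.54 to 10.3) in the shorter genes and 97 of 3578 (2.71%, 2.23 to 3.30) in the 186 genes. The overlap touched 19 genes and amounted to 37.4 kb, 26.5% of the 141 kb under H3K36me3, while H3K9me3 covered 2867 kb. In 12 genes every H3K36me3 region overlapped H3K9me3. With a reciprocal overlap of at least 50% required, 12.4% (7.53 to 19.7) of the H3K36me3 regions matched, and among regions of at least 1 kb 26.5% (16.2 to 40.3) overlapped. The shorter genes were not counted under these rules, so neither value can be set against their 8.63%.

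Taken bin by bin, in the 200 bp bins from which the regions were built, the shared stretches lay mostly in introns, as does the sequence of these genes. Of 187 bins in both lists, 180 lay in introns (96.3%, 92.5 to 98.2) and 6 at coding exons (3.21%, 1.48 to 6.82), against 98.3% (98.2 to 98.4) of sampled bins and 94.2% (93.8 to 94.6) of H3K9me3 bins in introns. Of 519 bins under H3K36me3 alone, 80 lay at coding exons (15.4%, 12.6 to 18.8). Bins sampled every 2 kb along the long genes touched coding exons in 1.04% (0.973 to 1.12). H3K36me3 bins as a whole did so in 12.2% (9.97 to 14.8) and H3K9me3 bins in 2.99% (2.72 to 3.28). Etl4 and Dock1 supplied most of the former, with 66 of 467 H3K36me3 bins at coding exons (14.1%, 11.3 to 17.6). In the other long genes 20 of 239 were (8.37%, 5.48 to 12.6). Coding exons were thus over-represented under both marks and more so under H3K36me3, as in the shorter genes, where the values were 7.44% for sampled bins, 26.2% for H3K36me3 and 12.5% for H3K9me3. The H3K9me3 bins of the long genes include 724 bins of the start regions described above. The share at coding exons was not taken without them. Repeated sequence was checked through the central 50 bases of each bin, counted over both strands of the assembly. They occurred more than once for 2.67% of the shared bins, 0.578% of the bins under H3K36me3 alone, 4.62% of the H3K9me3 bins and 6.96% of the sampled bins. By this count the shared bins were mostly of unique sequence, and no shared bin had 10 or more copies. The study's alignment restricted reads that map to several places, which limits the repeated sequence that can be listed. Its part in these shares was not tested.

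Base composition went with H3K9me3 from gene to gene. The G+C content of the 184 genes ran from 35.2% to 49.2% (median 39.98%). Across them the density of H3K9me3 and the G+C content had a Spearman coefficient of 0.73 and a Pearson coefficient of 0.67 (n = 184 genes, which share the same libraries and are no replicates). Leaving out chromosome 8, the Spearman coefficient was 0.74 over 172 genes. With length it was -0.15. In the 46 genes lowest in G+C the median density was 6.42 regions per Mb, and in the 46 highest it was 36.3. These groups overlapped, with ranges of 0 to 51.2 and 8.89 to 134. Sntg1 was the highest of the low group, with 51.2 regions per Mb at 38.0% G+C, and Camta1 had the highest G+C content of all with 52.3 per Mb. The 3 genes with neither mark had 35.6%, 35.96% and 37.7% G+C. H3K36me3 was found in 3 of the 46 lowest and 13 of the 46 highest genes.

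**Figure D5:**
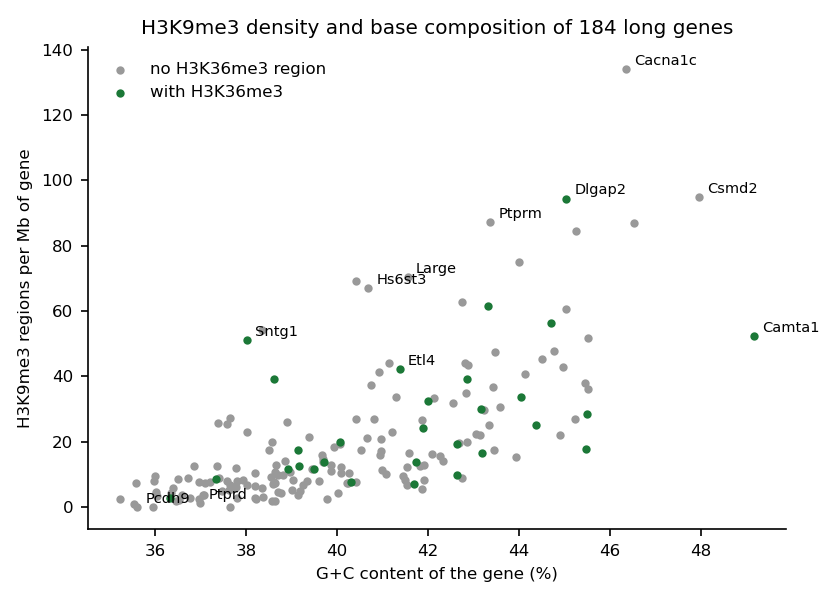
H3K9me3 regions per Mb of gene against the G+C content of the whole gene for 184 genes, those with H3K36me3 in green. Density runs from 0 to 134 per Mb, and the 4 highest genes, Cacna1c, Csmd2, Dlgap2 and Ptprm, have a G+C content above 43%.

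The lower pooled H3K9me3 density of the long genes was also seen at like base composition in all but the richest bins. Among sampled bins of 40 to 45% G+C, 1.79% (1.61 to 1.99) lay under H3K9me3 in the long genes and 2.66% (2.55 to 2.77) in the shorter ones. Below 35% G+C the values were 0.601% (0.499 to 0.725) and 1.46% (1.36 to 1.56). At 55% and over they were 11.04% (9.48 to 12.8) and 9.60% (9.26 to 9.94), with intervals that overlap. H3K36me3 was lower in the long genes in every class, with 0.0951% (0.0602 to 0.150) against 5.65% (5.50 to 5.81) at 40 to 45%.

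Grouped by what the genes encode, H3K9me3 was present in nearly every member of each of 7 lists. This is near its share in all 184 long genes, 181 of which carried it (98.4%). H3K36me3 was carried by a minority of each list, from none to 28.6%. Of 35 genes of synapse scaffolds and signalling, 10 carried H3K36me3, with Dock1 (18 regions) and Sntg1 (5) highest, and Gpc6 (73) and Dlgap2 (71) highest in H3K9me3. Of 26 genes of widely used cell functions and fragile sites, 6 carried it, with Exoc4 (3) and Cdkal1 (2) highest, and Hs6st3, a heparan sulfate sulfotransferase, had the most H3K9me3 regions (49), followed by Park2 (39). Of 38 cell adhesion genes, 4 carried H3K36me3 (10.5%), Odz4 with the most, and Ptprm (60) and Sdk1 (55) led in H3K9me3. In the list of channels and neurotransmitter receptors, of 19 genes, Accn1 (92) and Cacna1c (81) led in H3K9me3. Of 15 genes of RNA binding and transcription, 2 carried H3K36me3 (Smyd3 and Camta1), and Sox5 (60) and Camta1 (42) led in H3K9me3. No H3K36me3 was found in 7 cadherins and catenins or in 6 large LDL and CUB receptors, where Ctnna3 (34) and Csmd2 (55) had the most H3K9me3 regions. The other 38 genes were in no list, and 6 of them carried H3K36me3. The median H3K9me3 density ran from 8.91 regions per Mb in the large LDL and CUB receptors to 29.7 in the genes of RNA binding and transcription, and the ranges of all lists overlapped. For comparison, 29 of all 184 long genes (15.8%) carried H3K36me3. No difference between the lists was tested.

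By chromosome, H3K9me3 density of long genes ran from 10.3 regions per Mb on chromosome 15 (5 genes) to 43.6 on chromosome 11 (6 genes). Chromosome 8 stood at 26.4 (12 genes). Wwox and Cdh13, left out by the rule, were not counted in these values. They held 156 and 261 H3K9me3 regions (171 and 251 per Mb), denser than any chromosome given here. The order of the chromosomes therefore applies only to the genes kept. H3K36me3 was found in long genes of all autosomes but chromosomes 9, 11, 16 and 18, and chromosomes 2 and 7, with Etl4 and Dock1, had the most (47 and 22 regions).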

How the data were processed

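ChIP-seq libraries of H3K9me3 and H3K36me3 from WT and H3.3 G34R ES cells, 1 library in each of 4 groups, were processed by the authors. Per the study's methods and the processing notes, reads were aligned to mm9 with Bowtie 1.0.0, with restricted mapping to several places. Duplicates were left out, and SeqMonk gave read counts of 200 bp bins, corrected for library size and with matched distributions of WT and G34R cells. Bins in UCSC genes above a high percentile in WT or G34R cells were joined with close neighbours in BedTools 2.20.1, a width rule was applied, and regions with extreme read counts were left out. A bin outside the UCSC genes could not be listed, the percentile sets how many bins pass, and no deposited region is narrower than 600 bp. The 2 deposited lists hold chromosome, start and end, with no read values, so depth is unknown and no count test could be made.

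Here, regions were assigned to GENCODE vM1 genes (NCBIM37) by an overlap of at least 1 bp, as protein-coding gene spans from the first to the last annotated base. Shorter genes were those of 10 to under 500 kb, and overlapping spans were merged before densities were taken. A position is that of the region's midpoint. Shares carry 95% Wilson intervals, and density ratios carry exact conditional binomial intervals. No p-values were computed, since genes and regions of 1 library are no replicates. G+C content and copies were read from the same assembly. Scripts ran in Python 3.11.15 with numpy 2.4.6 and scipy 1.17.1 and were tested on simulated data. Genes named are the 10 with most regions of each mark and the 5 with the highest covered share, the 5 longest, those next to the limit, those where the lists overlap, and the leading members of each list; others are named where a count of 5 or fewer falls on them. 1 gene is counted in the totals but not reported here by name. Members and lists were chosen with earlier results of these data known. Alternatives were the length limit, chromosome 8, overlap, width, transcript and other-gene rules, and, added after seeing the data, the removal of read-through transcripts.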

Additional observations from a re-analysis of the deposited data

How the results depend on the processing

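In the alternatives run, both pooled density ratios stayed below 1. Medians taken gene by gene are not among the recomputed values counted here. By them the H3K9me3 order turned against all shorter genes together, with 12.7 regions per Mb in the 184 genes and 10.2 in the shorter ones. It did not turn against genes of 200 to under 500 kb, whose median was 18.6. For the 186 genes, 50 of 89 recomputed values stayed within the interval of the value in the text and 39 moved beyond it. For the 184 genes, 52 of 79 stayed and 27 moved. A reversal was defined for the density ratios only, as a crossing of 1, and none was seen. The causes were not tested, beyond the read-through models described above.

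For the 186 genes, the H3K36me3 density ratio (0.0674) became 0.0195 with read-through transcripts left out, 0.0604 with a limit of 400 kb, 0.0990 with 750 kb, 0.0314 without chromosome 8, which carries Gm20388, 0.0220 without regions that touch another gene, 0.0747 with neighbours within 2 kb counted as 1, 0.0870 by covered length, 0.208 against shorter genes of 100 to 500 kb, and 0.0290 without the gene with most regions, Gm20388. The H3K9me3 ratio (0.703) became 0.618, 0.744 with 400 kb, 0.650 without chromosome 8, 0.593 with regions of at least 1 kb, 0.776 with Wwox and Cdh13 kept, 0.730 with neighbours joined, 0.631 by covered length, 0.769 against 100 to 500 kb, and 0.636 without Gm20388. With regions of at least 1 kb, H3K36me3 was carried by 10.8% of genes, both marks by 10.8% and H3K9me3 by 91.9%. The share of H3K36me3 in the last part (18.3%) became 35.4% without read-through transcripts, 24.1% without chromosome 8, 33.6% without regions that touch another gene, 23.98% without Gm20388 and 25.8% as a mean over genes. The share of H3K9me3 in the first part (14.2%) became 16.9% with regions of at least 1 kb and 21.9% as a mean over genes. The share of H3K36me3 regions that touch another gene (70.2%) became 6.19% without read-through transcripts, 38.2% without chromosome 8 and 38.01% without Gm20388, and that of H3K9me3 regions (7.91%) became 2.77%, 4.49% and 4.196%, and 6.01% with protein-coding genes only. The share of H3K36me3 regions overlapping H3K9me3 (23.7%) became 41.6% without read-through transcripts, 31.2% without chromosome 8, 5.38% with a reciprocal overlap of 50% and 11.2% with regions of at least 1 kb.

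For the 184 genes, the H3K36me3 ratio (0.0195) became 0.0270 with 400 kb, 0.0150 with regions of at least 1 kb, 0.0266 with neighbours joined, 0.0138 by covered length, 0.0607 against 100 to 500 kb and 0.0123 without Etl4, the gene with most regions. The H3K9me3 ratio (0.618) became 0.683 with 400 kb, 0.541 with 750 kb, 0.526 with regions of at least 1 kb, 0.645 without regions that touch another gene, 0.696 with Wwox and Cdh13 kept, 0.649 with neighbours joined, 0.542 by covered length and 0.676 against 100 to 500 kb. With regions of at least 1 kb, H3K36me3 was carried by 9.78% of genes, both marks by 9.78% and H3K9me3 by 91.8%. The share of H3K36me3 in the last part (35.4%) became 25.3% with 400 kb, 45.9% with 750 kb, 26.97% with the longest coding transcript, 26.8% without Etl4 and 27.01% as a mean over genes. The share of H3K9me3 in the first part (14.9%) became 17.8% with regions of at least 1 kb and 22.1% as a mean over genes. H3K9me3 regions touching another gene (2.77%) became 0.867% with protein-coding genes only. The share of H3K36me3 overlapping H3K9me3 (41.6%) became 12.4% with a reciprocal overlap of 50% and 26.5% with regions of at least 1 kb.

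The lists give no read depth, no value per library and no replicate, so the strength of a region and its presence in WT or in G34R cells are unknown. A gene without a region is one without a bin run above the threshold. No paired analysis was possible because each group has 1 library.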
